A study of Homo sapiens with 6 samples.

Results

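The genes that bring iron into a cell, store it and sense it were examined in the ovarian cancer cell line OVCAR8, an established human line, after treatment with relaxin-2 (RLN2). This peptide hormone is related to insulin and best known from reproductive tissues. The 10 genes FTH1, FTL, NCOA4, TFRC, STEAP3, SLC11A2, SLC40A1, ACO1, IREB2 and FBXL5 were chosen by name, with earlier results of these data known, among 58037 gene IDs in the count tables. All cells were first kept in medium without serum for 16 hours, so the untreated cells are serum-starved too. They were then left untreated (3 libraries, numbered 2, 3 and 4 in the labels) or given recombinant human RLN2 at 50 ng/mL for 8 hours (3 libraries, numbered 1, 2 and 3). Total RNA of this 1 cell line was sequenced with a stranded kit. The labels speak of triplicates but do not say whether the cultures were separate. The p-values therefore reflect only how much these libraries vary, and that variation may be technical.

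Most iron enters a dividing cell bound to transferrin, which the transferrin receptor TFRC carries into endosomes. There the reductase STEAP3 reduces ferric iron and the transporter SLC11A2 (DMT1) moves it to the cytosol. Iron that is not used is stored in ferritin, a shell of heavy (FTH1) and light (FTL) chains, and is released when the receptor NCOA4 carries ferritin to the lysosome. SLC40A1 (ferroportin) is the known cellular iron exporter. The iron regulatory proteins ACO1 (IRP1) and IREB2 (IRP2) bind a hairpin in mRNAs, the iron-responsive element, when iron is scarce. Binding near the start of an mRNA blocks its translation and binding in the 3′ UTR of TFRC protects the mRNA from decay. FBXL5 is an iron-sensing ubiquitin ligase subunit that marks IREB2 for degradation. Translation and protein levels were not measured here.

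The hairpins are shown first because they join 5 of the 10 genes to the iron regulatory proteins. They were searched in GENCODE 29 transcripts, on the transcript strand, as CNNNNNCAGUGN followed by 5 bases that pair with the 5 bases before the loop, G-U pairs allowed. Capitals mark the bulged C and the 6-base loop.
FTH1: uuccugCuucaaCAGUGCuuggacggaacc
FTL: cucuugCuucaaCAGUGUuuggacggaaca
SLC40A1: caacuuCagcuaCAGUGUuagcuaaguuug
TFRC site 1: aauuauCggaagCAGUGCcuuccauaauua
TFRC site 2: cauuauCgggagCAGUGUcuuccauaaugu
TFRC site 3: cuguauCggagaCAGUGAucuccauauguu
TFRC site 4: aauuauCgggaaCAGUGUuucccauaauuu
SLC11A2: agccauCagagcCAGUGUguuucuaugguu

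The hairpins of FTH1 (chr11:61967573-61967602, minus strand, GRCh38), FTL (chr19:48965335-48965364, plus strand) and SLC40A1 (chr2:189580660-189580689, minus strand) lay in the 5′ UTR. The 4 hairpins found in TFRC lay in its 3′ UTR, the first at chr3:196050978-196051007 and the last at chr3:196050462-196050491 on the minus strand. The search asked for the loop CAGUGN, so hairpins with another loop would be missed. SLC11A2 had its hairpin in the 3′ UTR of the principal transcript (chr12:50988268-50988297, minus strand), with 4 of 5 stem pairs. All 5 pairs were met in 4 of the 10 genes and in 1.48% of 19684 protein-coding genes. A match with 4 or 5 pairs was found in 11.2% of genes, so the further matches with 4 pairs in the 3′ UTR of ACO1 and IREB2 are not shown. A match is a description of the letters and not a measured binding site.

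The libraries held 11939148 to 22426768 reads assigned to genes. Untreated replicate 2 stood apart in base composition: over 16673 genes, Spearman's rho between a gene's GC content and its deviation from the mean of all libraries was -0.81 in this library, against -0.21 to 0.67 in the others. RLN2 replicate 2 had the fewest gene reads and 27.0% multimapping reads, against 5.31% to 6.19% elsewhere. Of 8 ovarian and epithelial carcinoma markers all had reads, MUC16 only 4, and they summed to 1498 to 2566 CPM (counts-per-million of gene reads, after edgeR's TMM scaling between libraries) in untreated and 2365 to 2872 CPM in RLN2 libraries. The summed markers were at most 0.404 CPM for leukocytes, 0.455 CPM for hepatocytes, 2.27 CPM for endothelium and 18.6 CPM for fibroblasts, with CD163 and DCN at 0. Erythroid markers summed to 2.94 CPM in untreated replicate 4 and at most 0.180 CPM in the other libraries.

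Of the 10 genes 9 were well expressed and 1 was not detected. SLC40A1 (chromosome 2, 189560579 to 189583758), the exporter, had 0 reads in every library. By a floor of 3 counts over the 6 libraries together, a level of up to 0.0264 CPM remains possible, for counting error only. The other 9 genes had between 519 and 17210 reads in each library, and all 9 passed the filter on low counts. Their levels per kilobase of principal transcript (CPM/kb), untreated, ran from FTL at 550 ± 133 CPM/kb (mean ± SD, n = 3 here and below) to ACO1 at 10.4 ± 0.921 CPM/kb.

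**Figure D1:**
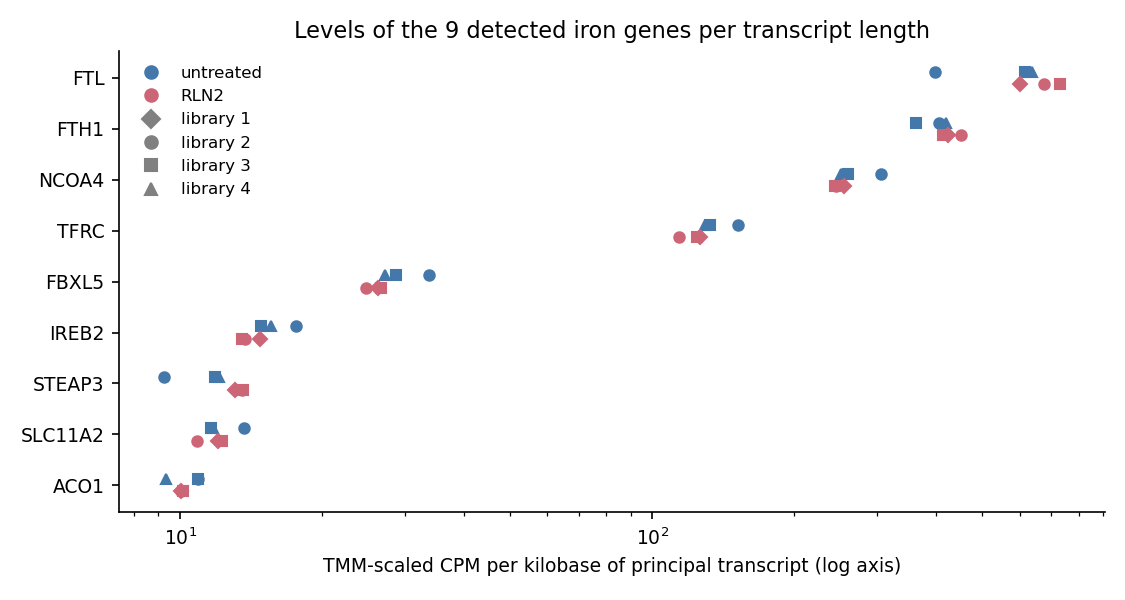
Level of each detected iron gene in CPM per kilobase of its principal transcript (log axis), 1 point per library, with colour for the treatment and shape for the library number. FTL, FTH1, NCOA4 and TFRC lay between 114 and 731 CPM/kb, and the other 5 genes between 9.25 and 33.7 CPM/kb.

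On this scale the ferritin chains were the most abundant of the set, FTL at 397 to 731 and FTH1 at 362 to 451 CPM/kb over the 6 libraries, and their ranges overlapped. NCOA4 followed at 244 to 305 CPM/kb and TFRC at 114 to 152 CPM/kb, each apart from its neighbours in the order. FBXL5 was at 24.8 to 33.7 CPM/kb. IREB2 (13.5 to 17.6), STEAP3 (9.25 to 13.6), SLC11A2 (10.9 to 13.7) and ACO1 (9.31 to 10.9 CPM/kb) each overlapped with a neighbour among these 4 genes. Divided by the union of all annotated exons instead, the first 5 kept their order, while IREB2 came to 8.82, below STEAP3 at 10.5 and ACO1 at 10.1 CPM/kb, and SLC11A2 was the lowest of the 9 at 4.94 CPM/kb.

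The comparison of RLN2 with untreated cells asked which of these mRNAs differ after 8 hours of the hormone. None of the 9 tested passed the threshold, a Benjamini-Hochberg adjusted p under 0.05 over 16740 genes in edgeR's quasi-likelihood test, and 0% of all tested genes did. STEAP3 and IREB2, or 2 of 9, had an unadjusted p under 0.05, against 10.8% of all genes. The groups did not overlap in 4 of 9, against 21.4% of all genes: STEAP3 was higher in every RLN2 library (10.8% of genes were apart in this direction), and TFRC, IREB2 and FBXL5 were lower (10.5%). The 95% intervals of the fold, RLN2 over untreated, lay within 0.750 and 1.45 for 8 of the genes, and reached from 0.923 to 1.60 for FTL.

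**Figure D2:**
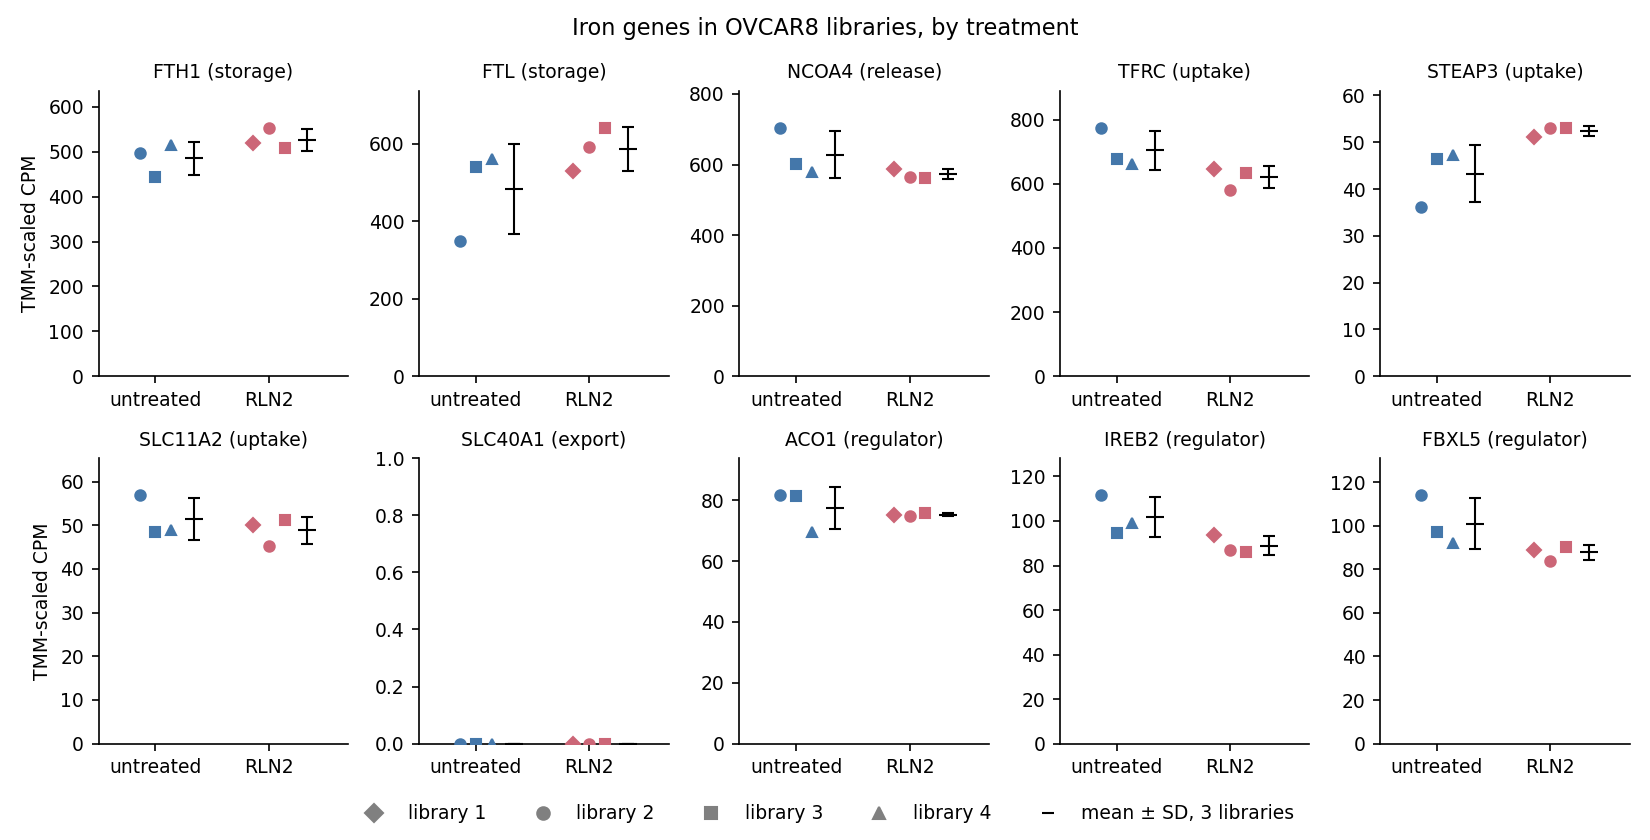
TMM-scaled CPM of the 10 iron genes in each library (points, shape for the library number) with the mean ± SD of 3 libraries beside them, each panel from 0. STEAP3 reads 51.2 to 53.1 CPM in RLN2 libraries and 36.2 to 47.3 CPM in untreated ones, and SLC40A1 is at 0 throughout.

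Among the uptake genes, TFRC (chromosome 3, 196027183 to 196082189) had 775, 677 and 661 CPM in untreated replicates 2, 3 and 4. In RLN2 replicates 1, 2 and 3 it had 645, 581 and 635 CPM. All RLN2 values lay under all untreated values, and the gap between the nearest libraries was smaller than the spread within either group. The log2 fold change was -0.18 ± 0.09 (SE) with an edgeR adjusted p of 0.408. Without untreated replicate 2, the highest of the 6, the log2 fold change of TFRC was -0.11.

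STEAP3 (chromosome 2, 119223831 to 119265652), the endosomal reductase, had 36.2, 46.3 and 47.3 CPM in untreated replicates 2, 3 and 4. In RLN2 replicates 1, 2 and 3 it had 51.2, 53.1 and 53.1 CPM. The RLN2 libraries were close together and above all untreated ones, of which replicate 2 was far below the others. The log2 fold change was 0.28 ± 0.11 (edgeR adjusted p = 0.408), and 0.16 without untreated replicate 2. STEAP3 had the smallest unadjusted p of the set, 0.0393, and ranked 1276 by p among all genes. Its profile over the 6 libraries was shared widely: among 5992 other genes whose average log2 CPM was at least 5, 802 had a Pearson r above 0.95 with it, led by IFITM3 (0.998), PSMC4 (0.998) and CALR (0.996). SLC11A2 (chromosome 12, 50979401 to 51028566) averaged 51.4 ± 4.70 CPM without and 48.8 ± 3.16 CPM with RLN2. The groups overlapped, with untreated replicate 2 highest at 56.9 CPM and RLN2 replicate 2 lowest at 45.2 CPM, and the log2 fold change was -0.07 ± 0.10 (edgeR adjusted p = 0.671). Without untreated replicate 2 it was 0.0075, and without RLN2 replicate 2 it was -0.02.

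The ferritin chains did not pass either. FTH1 (chromosome 11, 61959718 to 61967660), the chain that oxidises iron, had 497, 445 and 516 CPM untreated and 519, 554 and 508 CPM after RLN2. The groups overlapped, since untreated replicate 4 was above RLN2 replicate 3, and the log2 fold change was 0.12 ± 0.08 (edgeR adjusted p = 0.452). It was 0.055 without untreated replicate 3. FTL (chromosome 19, 48965301 to 48966878), the chain that favours core formation, had 349, 540 and 561 CPM untreated and 529, 592 and 641 CPM after RLN2. Its SD in untreated libraries was 24.2% of the mean, the widest of the 9 genes, through the low value of replicate 2. The log2 fold change of FTL was 0.28 ± 0.17 (edgeR adjusted p = 0.424), and 0.09 without that library.

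Ferritin counts carry a limit of their own, because both chains have many near-identical processed pseudogenes and reads that map to several places were not counted. Of the 50-base stretches of the principal FTH1 transcript 40.4% also occur in transcripts of 15 other genes. For FTL the share was 18.3%, in 2 other genes, and for NCOA4 it was 8.55%, while it was at most 0.553% for the other members. The absolute levels of FTH1 and FTL are therefore uncertain. Reads assigned to the 25 FTH1 pseudogenes summed to 531, with FTH1P16 (84 reads) and FTH1P7 (79) leading, and made up 0.738% to 1.11% of the reads of FTH1 and its copies in any library. The 16 FTL pseudogenes had 169 reads, 126 of them on FTLP3 and 24 on FTLP12.

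FTH1 also depended on how strand was counted. BEST1, a channel gene, is annotated across FTH1 on the other strand. In untreated replicate 2, FTH1 had 11044 reads in the strand-aware column used here and 52 in the unstranded column, where reads overlapping both genes count as ambiguous. The unstranded column held 1.30% of the FTH1 reads over all libraries, 87.0% for STEAP3 and 100% to 105% for the other members with reads.

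NCOA4 (chromosome 10, 46005088 to 46030714), the ferritin receptor, had 704, 600 and 579 CPM untreated and 588, 564 and 563 CPM after RLN2. RLN2 replicate 1 was above untreated replicate 4, so the groups overlapped, and the log2 fold change was -0.13 ± 0.09 (edgeR adjusted p = 0.439). Without untreated replicate 2 it was -0.04.

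Of the iron sensors, IREB2 (chromosome 15, 78437431 to 78501456) had 112, 94.4 and 99.1 CPM untreated and 93.7, 87.0 and 85.9 CPM after RLN2. The groups were apart by less than 1 CPM, and the log2 fold change was -0.19 ± 0.08 (edgeR adjusted p = 0.408), or -0.12 without untreated replicate 2. FBXL5 (chromosome 4, 15604539 to 15681679), which targets IREB2 protein, had 114, 97.0 and 92.0 CPM untreated and 89.0, 84.0 and 90.1 CPM after RLN2. Again all RLN2 libraries were lower, the log2 fold change was -0.20 ± 0.09 (edgeR adjusted p = 0.408), and it was -0.11 without untreated replicate 2. ACO1 (chromosome 9, 32384603 to 32454769), which serves as cytosolic aconitase when it holds an iron-sulfur cluster, averaged 77.5 ± 6.88 CPM without and 75.3 ± 0.421 CPM with RLN2. All 3 RLN2 values of ACO1 lay inside the untreated range of 69.5 to 81.6 CPM, with a log2 fold change of -0.04 ± 0.08 (edgeR adjusted p = 0.781). It was -0.0052 without untreated replicate 2, -0.0082 without replicate 3 and -0.11 without replicate 4. Counting error was smaller than the spread among untreated libraries for every tested member. In the shallowest case, SLC11A2 with 519 reads, the counting SD was 4.39% of the value. For the ferritin chains, NCOA4 and TFRC it was at most 1.25%. Among RLN2 libraries it exceeded the spread for ACO1 (3.41% against an SD of 0.56% of the mean) and STEAP3 (4.05% against 2.07%). For FBXL5 it came near the RLN2 spread (3.22% against 3.74%).

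**Figure D3:**
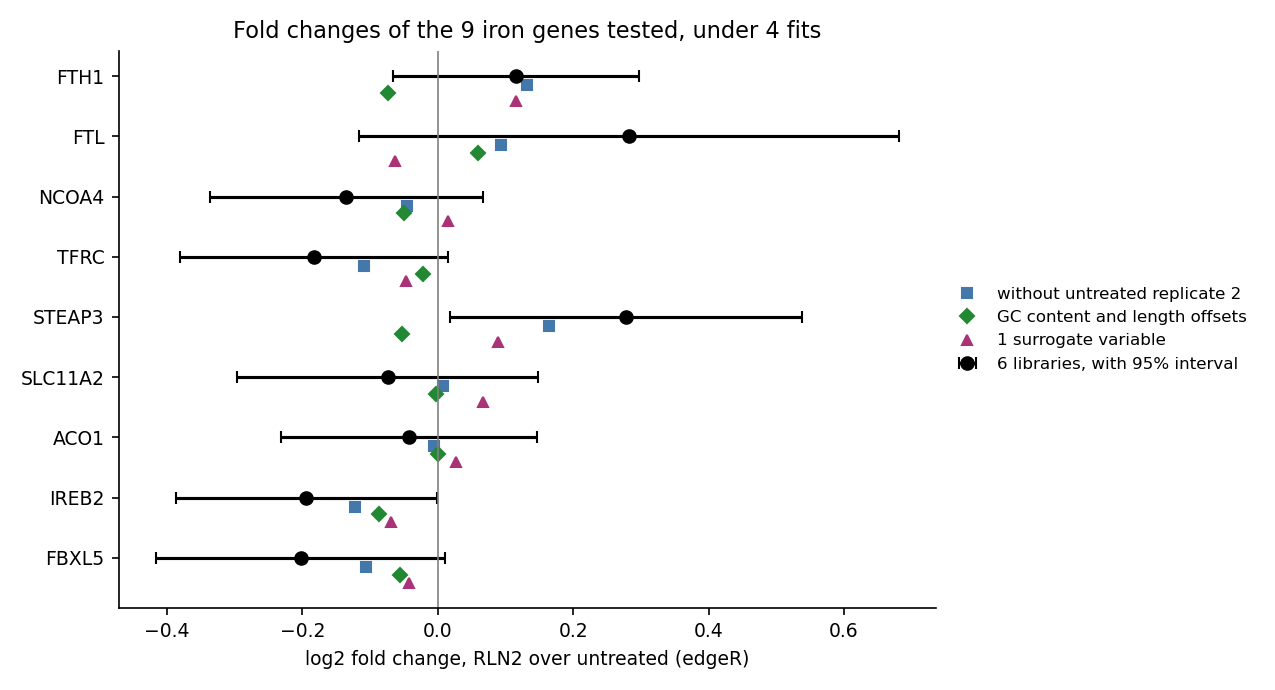
Log2 fold change of the 9 tested iron genes, RLN2 over untreated: black points with 95% intervals use all 6 libraries, squares leave out untreated replicate 2, diamonds use offsets for GC content and length, and triangles add 1 surrogate variable. For 8 genes the squares lie closer to 0 than the black points, and for FTH1 farther (0.13 against 0.12).

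GC content, taken as the mean over a gene's annotated transcripts, moved with these values. The 3 tested members with the most GC-rich transcripts, STEAP3 (57.7%), FTL (56.3%) and FTH1 (54.8%), were the 3 with a log2 fold change above 0. The other 6, from ACO1 at 47.1% down to TFRC at 41.9%, were all below 0. The same held across all genes, with a Spearman rho of 0.73 between GC content and log2 fold change over 16673 genes, a description across genes that share the 6 libraries. After the smooth trend on GC content and transcript length was taken out of each library through offsets, the log2 fold change was -0.05 for STEAP3, 0.06 for FTL and -0.07 for FTH1. For TFRC it was -0.02, for FBXL5 -0.06, for IREB2 -0.09 and for NCOA4 -0.05, so all 9 lay within 0.09 of 0. With 1 surrogate variable as a covariate FTH1 stayed at 0.12, STEAP3 was 0.09 and FTL -0.06. This variable was 0.84 in untreated replicate 2, and -0.04, -0.43 and -0.31 in RLN2 replicates 1, 2 and 3. It is therefore partly aligned with treatment, and this fit is not independent of leaving out untreated replicate 2.

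**Figure D4:**
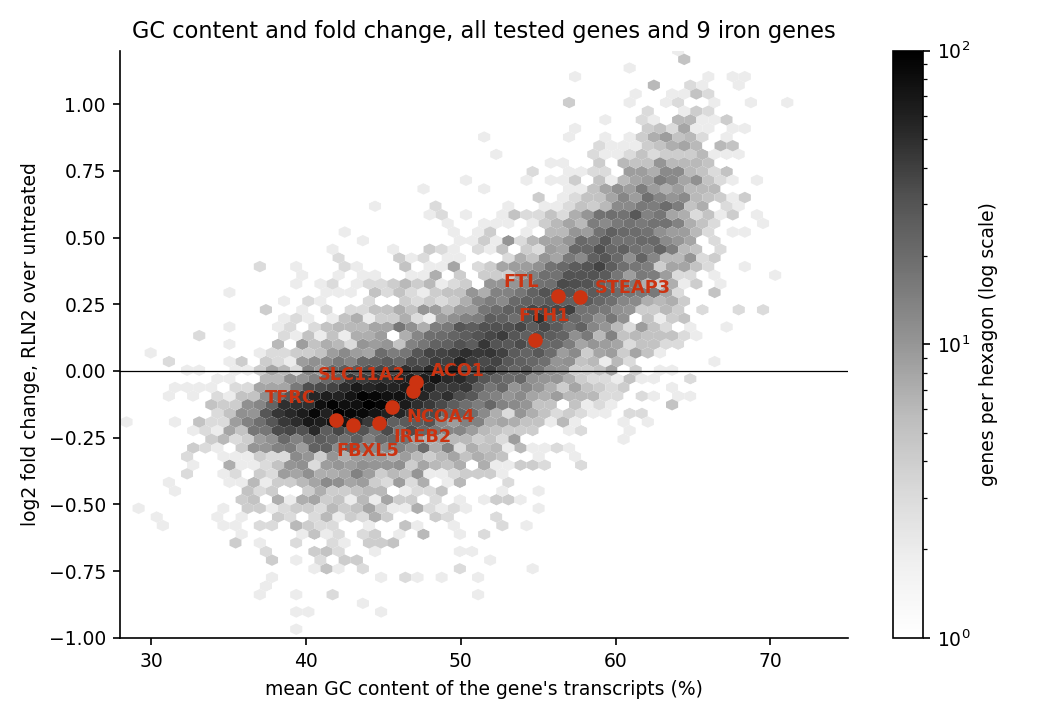
Mean GC content of a gene's transcripts (horizontal) against its log2 fold change, RLN2 over untreated (vertical). Grey hexagons count the tested genes on a log scale, those beyond the axes not drawn, and red points are the 9 iron genes, which lie within the grey band (rho 0.73 over 16673 genes).

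Ratios of reads within 1 library need no scaling between libraries, but they do not correct for GC content or length and are no measure of protein or iron. There were 1.56, 1.52 and 1.28 TFRC reads per FTH1 read in untreated replicates 2, 3 and 4, and 1.24, 1.05 and 1.25 in RLN2 replicates 1, 2 and 3. The groups did not overlap, but untreated replicate 4 was only just above RLN2 replicate 3. FTL reads per FTH1 read were 0.701, 1.21 and 1.09 untreated and 1.02, 1.07 and 1.26 after RLN2, overlapping. TFRC reads per FTL read were 2.22 in untreated replicate 2 and 0.982 to 1.25 in the other 5 libraries, so this ratio set 1 library apart rather than the groups. STEAP3 reads per TFRC read were 0.0467 to 0.0715 untreated and 0.0793 to 0.0913 after RLN2, without overlap. With the offsets, the log2 fold changes behind the ratios without overlap were -0.05 for STEAP3, -0.02 for TFRC and -0.07 for FTH1. STEAP3 and TFRC had the highest and lowest GC content of the tested members as means over annotated transcripts (57.7% and 41.9%). In principal transcripts alone, IREB2 (38.3%) and FBXL5 (40.5%) were below TFRC (41.5%). NCOA4 reads per FTH1 read averaged 1.30 untreated and 1.09 after RLN2, and IREB2 reads per ACO1 read 1.32 and 1.18, both overlapping. The share of all gene pairs whose ratio separates the groups was not computed.

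**Figure D5:**
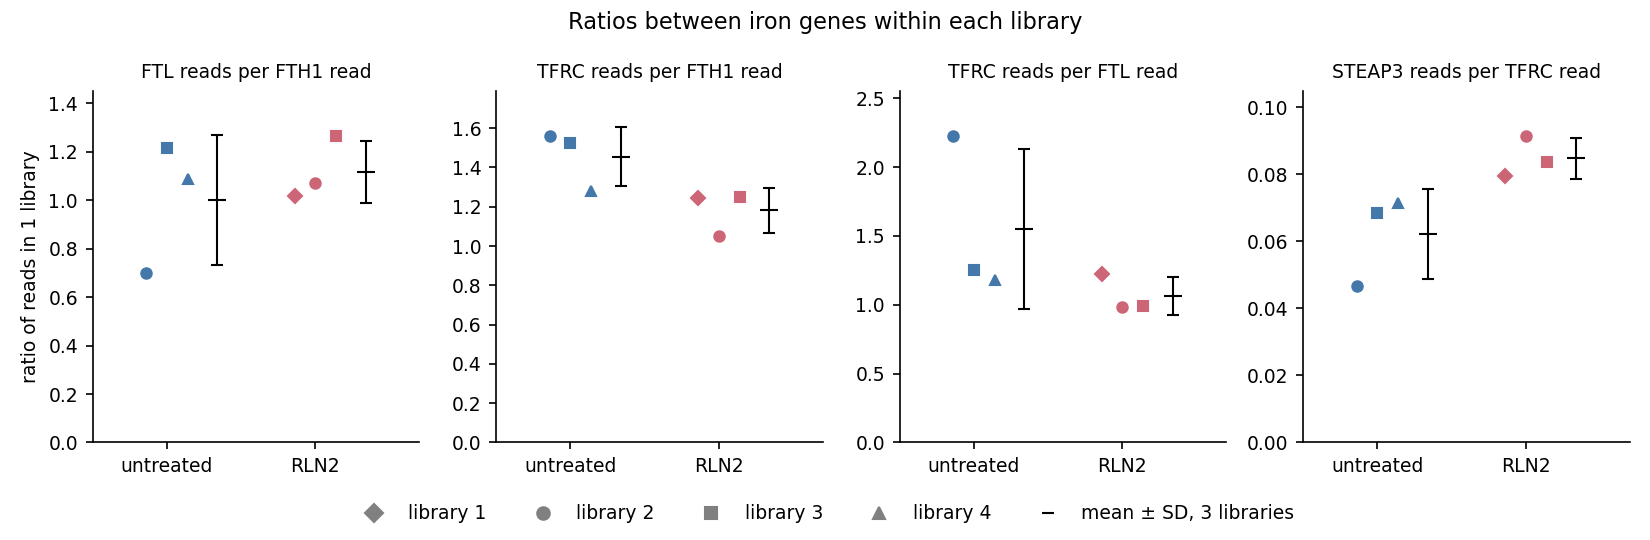
Ratios of reads between iron genes within each library (points, shape for the library number) with the mean ± SD of 3 libraries, each panel from 0. TFRC reads per FTH1 read are 1.28 to 1.56 untreated and 1.05 to 1.25 after RLN2, and untreated replicate 2 lies apart in the ratios with FTL.

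The rest of the iron pathway was read from 7 lists, some of which hold members of the set. In none did a gene pass edgeR's test. Of 18 genes for uptake and endosomal reduction 13 were tested, 5 with a log2 fold change above 0 and 8 below, with a median of -0.06, against -0.01 over all tested genes. Without untreated replicate 2 the list had 8 above 0 and 5 below, median 0.01, and with 1 surrogate variable 10 above and 3 below, median 0.07. TFR2, a second transferrin receptor best known from liver, had 4.29 ± 0.553 CPM untreated and 6.31 ± 0.605 CPM after RLN2 (log2 fold change 0.55 ± 0.16), and MCOLN1, a lysosomal cation channel, had 3.30 ± 1.19 and 5.39 ± 0.403 CPM (0.72 ± 0.26). Their groups did not overlap, and with the offsets these log2 fold changes were 0.01 and 0.27. Without untreated replicate 2, TFR2 was 0.46 and MCOLN1 0.47, and with 1 surrogate variable they were 0.35 and 0.26. TF, which encodes transferrin itself, had 13 reads in all.

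Of 10 genes for ferritin storage and release 8 were tested, 6 above 0 and 2 below, median 0.25. The median was 0.05 with the offsets, 0.11 without untreated replicate 2 and -0.0042 with 1 surrogate variable. PCBP1, a chaperone that delivers iron to ferritin, had a log2 fold change of 0.28 ± 0.12 and PCBP4 0.53 ± 0.26. With the offsets these were 0.07 and 0.04, and with 1 surrogate variable 0.25 and 0.0063. Leaving out untreated replicate 2 gave 0.29 for PCBP1 and 0.27 for PCBP4. The groups overlapped for both genes. PCBP1 was highest in RLN2 replicate 2 at 133 CPM, while RLN2 replicate 3 at 98.2 CPM lay below untreated replicate 4 at 99.5 CPM. The mitochondrial ferritin gene FTMT and the testis gene FTHL17 had 0 reads. On the export side 2 of 10 genes were tested. Beside SLC40A1, the ferroxidase gene HEPH and HJV, a gene of the hepcidin axis, had 0 reads. CP (ceruloplasmin) had 25 and HAMP (hepcidin) 5 in all libraries together. BMP6, a signal for hepcidin, had 0.722 ± 0.214 CPM untreated and 0.395 ± 0.222 CPM after RLN2 from 65 reads in all, with overlapping groups. Its log2 fold change was -0.96 ± 0.45, and -1.17 with the offsets. It was -0.72 with 1 surrogate variable and -0.73 without untreated replicate 2. ERFE, a hepcidin suppressor, had a log2 fold change of 0.41 ± 0.28. ERFE was -0.13 with the offsets, -0.12 with 1 surrogate variable and 0.12 without untreated replicate 2.

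All 11 genes of the iron regulatory protein control list were tested, 4 above 0 and 7 below, median -0.05. They include the ligase partners of FBXL5 and the cytosolic iron-sulfur assembly factors. Of these factors CIAO3 (0.47 ± 0.22) and CIAO2B (0.40 ± 0.22) are named for the smallest p in the list besides members. The other factors were CIAO2A (-0.19 ± 0.10), CIAO1 (0.02 ± 0.07) and MMS19 (0.11 ± 0.11), and with the offsets -0.04, -0.34 and 0.0032. CIAO3 was 0.26 and CIAO2B 0.17 without untreated replicate 2, with the offsets 0.05 and 0.12, and with 1 surrogate variable 0.04 and -0.04. The median of the list was 0.00046 with the offsets, with 6 above 0 and 5 below. Heme synthesis, transport and breakdown had 16 of 17 tested, 12 above 0 and 4 below, median 0.15, which was 0.0033 with the offsets. HMOX1, the inducible heme oxygenase, had 6.51 ± 1.46 CPM untreated and 8.89 ± 0.903 CPM after RLN2 (0.44 ± 0.19), without overlap, and BLVRB, a biliverdin reductase, 0.57 ± 0.24. With the offsets these were -0.01 and 0.11, and without untreated replicate 2 they were 0.26 and 0.37.

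Mitochondrial iron and iron-sulfur assembly had 20 of 21 tested, 7 above 0 and 13 below, median -0.04. Leaving out untreated replicate 2 gave 10 above and 10 below, median 0.0027. ABCB8, a mitochondrial transporter, had 18.1 ± 7.28 CPM untreated and 28.6 ± 3.74 CPM after RLN2 (0.66 ± 0.28), and FDXR, ferredoxin reductase, 0.59 ± 0.31. With the offsets they were 0.25 and 0.06, and without untreated replicate 2 they were 0.37 and 0.27. With 1 surrogate variable FDXR was -0.04. Of 10 mRNAs with a known iron-responsive element 8 were tested, 4 above 0 and 4 below, with a median of 0.00032. In this list FTH1 (0.12) and FTL (0.28), with the hairpin in the 5′ UTR, had log2 fold changes above 0, while TFRC (-0.18), SLC11A2 (-0.07) and CDC14A, a phosphatase (-0.14 ± 0.11), were below. With the offsets FTH1 was -0.07, FTL 0.06, TFRC -0.02, SLC11A2 -0.0030 and CDC14A -0.03. With 1 surrogate variable FTH1 was 0.12, FTL -0.06, TFRC -0.05, SLC11A2 0.07 and CDC14A -0.04. FTH1 and FTL were also richer in GC (54.8% and 56.3%) than TFRC (41.9%) and SLC11A2 (46.9%).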

How the data were processed

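The authors deposited raw read counts made with STAR on hg38, per the submitters' processing notes, in 1 table per library and a merged table. Neither the STAR version nor the gene annotation is given in the sources used here. Libraries came from TRIzol RNA and a kit that keeps strand, per the labels' protocols. Members were matched by symbol in the merged table, and their counts were read from the reverse column, which equalled the merged table in all 24635 shared gene IDs. Lines for unmapped, multimapping, ambiguous (2.36% to 4.18%) and no-feature reads (17.5% to 32.0%) were left out. Names, coordinates, lengths and GC content are from GENCODE 29 (GRCh38), matched for 57433 of 58037 IDs.

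After edgeR's filterByExpr and TMM scaling, the 6 libraries were compared with edgeR 4.0.16 in R 4.3.3 by the quasi-likelihood F test (two-sided), with treatment as the only term. CPM are TMM-scaled. Alternatives were DESeq2 1.42.0, limma-voom 3.58.1, other scalings, no filter, unstranded counts, the merged table, GC content and length offsets (natural splines, 4 knots), 1 surrogate variable (sva 3.50.0), the replicate number as a block and left-out libraries. The test was checked on simulated counts. Members and lists were chosen with earlier results of these data known. Besides members, the genes named are the 2 with the smallest p in each list, 2 pseudogenes per ferritin chain, the 3 genes most like the member with the smallest p, and markers. One gene that this rule names is not reported here. BEST1, CIAO2A, CIAO1, MMS19 and genes named for having 0 or few reads were chosen after their values were seen. Figures were drawn with matplotlib 3.10.9.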

Additional observations from a re-analysis of the deposited data

How the results depend on the processing

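None of the 9 tested iron genes was called under any of 17 alternatives, and the 7 lists held 0 called genes throughout. TFRC, IREB2 and FBXL5 kept a log2 fold change below 0 under all of them, with adjusted p from 0.236 to 0.986. The sign turned with the GC content and length offsets for FTH1 (-0.074), STEAP3 (-0.053) and ACO1 (0.00046), and with 1 surrogate variable for FTL (-0.064), NCOA4 (0.015), SLC11A2 (0.067) and ACO1 (0.027). It also turned without untreated replicate 2 for SLC11A2 (0.0075, with a range from -0.12 to this value with 1 library left out), and without both libraries numbered 2 for SLC11A2 (0.064) and ACO1 (0.0065); the cause was not tested. FTH1 was 1.18 with unstranded counts, which hold few of its reads. Over all genes, 120 were called with no filter on low counts (115 higher, 5 lower), 7 with 1 surrogate variable, 3 without both libraries numbered 2 (RNU4-1, RNU4-2 and HSPB1), and from 0 to 3 with 1 library left out (RNU4-1, RNU4-2 and RNY4, without untreated replicate 2). With the replicate block 1 gene was called (MT-RNR1), FTL was 0.51 and STEAP3 0.37. Only numbers 2 and 3 occur in both groups, so these values rest on the libraries with those numbers and not on all 6. Whether the numbers pair the libraries could not be told. Deviations of same-numbered libraries correlated at -0.33 for number 2 and 0.12 for number 3. Both values lay within the range of differently numbered libraries, -0.39 to 0.47. The other alternatives called 0 genes. An unadjusted p under 0.05 was reached by 1744 of 32405 genes in DESeq2, which was run without the filter on low counts. It was reached by 2058 of 16740 genes in limma-voom and by 1811 of 16740 in edgeR. Depth limits SLC40A1, for which no difference could be detected, and multimapping limits FTH1 and FTL.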
